A study of Mus musculus with 5 samples.

Results

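The 51 genes described here are interferon-stimulated genes of the mouse together with the receptors, kinases, transcription factors and feedback inhibitors through which interferons signal. They are 51 of the 49671 genes in the deposited count table, and each was found once by its gene symbol. The genes were chosen with the difference between SO− and SO+ embryos already known, so their values in that contrast are given as a description, with counts and errors and without a test.

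RNA was sequenced by SmartSeq2, a protocol that amplifies polyadenylated RNA, from the manually dissected epiblast and visceral endoderm (VE) of early post-implantation embryos on a mixed strain background. The 3 SO− embryos carried Sox2Cre+/-; Oct4 fl/-, that is a Cre transgene, a floxed Oct4 allele and a null Oct4 allele. The 2 SO+ embryos were labelled wild type, with no Cre transgene and a floxed and an intact Oct4 allele (Sox2Cre-/-; Oct4 fl/+). All 5 embryos therefore carried a floxed allele, and the transgene and the loss of Oct4 occurred together and cannot be told apart. Cre was driven by the Sox2 promoter, which acts mainly in the epiblast, so Oct4 deletion is not uniform over the tissues in a sample, and each sample was a separate embryo.

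Type I interferons are secreted proteins that bind a receptor made of IFNAR1 and IFNAR2. The associated kinases JAK1 and TYK2 then phosphorylate transcription factors such as STAT2, which joins IRF9 and binds interferon-stimulated response elements in promoters. Interferon gamma acts through a separate receptor and through gamma-activated sites in promoters, with IRF1 as a well-known target. Pluripotent cells are known to respond weakly to interferons, and early embryonic tissues express many of the antiviral effector genes at low levels.

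Oct4 is encoded by Pou5f1, and its level was checked against the labels. Pou5f1 stood at 920.2 and 435.3 CPM, that is counts scaled to a total of 1e+06 per library, in SO+ embryos 1 and 2. It stood at 27.8, 12.5 and 43.7 CPM in SO− embryos 1, 2 and 3. The log2 fold change was -4.43 (edgeR quasi-likelihood test, Benjamini-Hochberg adjusted p = 3.94e-05), and the genotypes did not overlap. Total counts were 27538119 and 27047148 in the SO+ libraries and 1117566 to 4191498 in the SO− libraries, so depth differed between the genotypes by 8.67 times on average and cannot be told apart from genotype. A count of 3 corresponded to 0.109 and 0.111 CPM in the SO+ libraries and to 0.726, 2.68 and 0.716 CPM in SO− embryos 1, 2 and 3. All 8 epiblast markers and all 10 VE markers had counts, whereas the 10 markers of the extraembryonic ectoderm, which had been dissected away, summed to 23.3 to 53.7 CPM. The epiblast markers, which include Pou5f1, summed to 6411 and 5199 CPM in SO+ and to 2871, 2537 and 3679 CPM in SO−, without overlap.

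Summed over the 51 genes, SO+ embryos 1 and 2 had 665 and 671 CPM, whereas SO− embryos 1, 2 and 3 had 952, 922 and 912 CPM. Every SO− embryo lay above both SO+ embryos, and the ratio of the means was 1.39. In tissue samples of this kind, a change in the share of cells of a type and a change in the RNA per cell cannot be told apart. The net difference between the means was 261 CPM. Irf1 amounted to 24.1% of it, Parp9 to 14.6%, Ifitm3 to 12.9%, Parp12 to 8.61%, Parp10 to 7.27%, Oasl2 to 6.62%, Gbp2 to 6.61%, Dtx3l to 5.54% and Ifitm1 to 4.44%, whereas Tor3a (-9.26%) and Bst2 (-8.23%) went the other way. The 10 genes called higher below summed to 108 and 122 CPM in SO+ and to 349, 344 and 310 CPM in SO−, a sum that their choice on this contrast fixed to be higher.

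**Figure D1:**
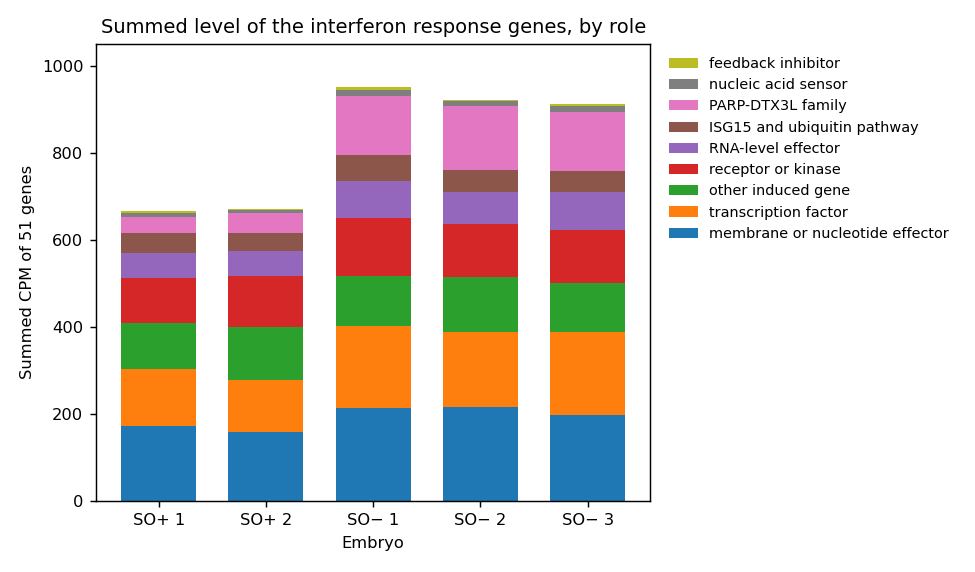
Summed CPM of the 51 genes in each embryo (vertical axis, from 0), stacked by the role of the gene. The 3 SO− bars reach 912 to 952 CPM and the 2 SO+ bars 665 and 671 CPM, and the layer of the PARP-DTX3L family goes from 38.5 and 45.4 CPM in SO+ to between 134.6 and 145.0 CPM in SO−.

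Of the 51 genes, 40 had enough counts to enter the fit across 12067 genes and 11 did not. Among the 40, 34 had a log2 fold change (SO− over SO+) above 0, against 49.7% of all genes tested, and their median was 0.61 against -0.002 for all genes. The median was the same for Usp18 and Rtp4, which had no counts in SO+, with SO+ set at a floor of 3 counts. The filter asked for a minimum level without regard to genotype, so a gene could enter on its SO− values alone. Usp18 and Rtp4 entered so, as did other genes low in SO+, among them Gbp3, Ifih1 and Nmi. For such genes a log2 fold change above 0 was fixed by entry, so the 34, the median and the counts of separation are description only. Dhx58, lower in every SO− embryo, did not enter. At an adjusted p under 0.05, 10 were called higher in SO− and Bst2 was called lower. Over all genes tested, 1.42% were called higher and 0.928% lower. The genes were selected on this contrast, so nothing is read from these counts. Without SO− embryo 1 the number called higher was 2 (Parp9 and Irf1), and without SO− embryo 2 it was 3 (Parp9, Irf1 and Oasl2). Usp18 did not enter the fit without SO− embryo 1, which the tally that follows takes as not called. With each of the 5 embryos left out in turn, Parp9 and Irf1 were called 5 times, Oasl2 4 times, Parp12, Parp10, Rtp4, Ifitm3 and Nmi 3 times, and Usp18, Gbp3 and Bst2 2 times. The DESeq2 test called 10 higher as well, with Ifih1 in place of Gbp3, where it called 2.06% of all genes higher. The limma-voom test called 7 higher, without Usp18, Ifitm3 and Gbp3, and did not call Bst2. With at least 10 counts required in every embryo, 23 genes were tested and 7 were called higher. Usp18, Rtp4 and Gbp3 were not tested there. In 20 of the 40 genes every SO− embryo lay above every SO+ embryo, and in 2, Bst2 and Tor3a, every SO− embryo lay below. Such separation was found in 13.9% of all genes tested for higher values and in 15.6% for lower values. When counts of the SO+ embryos were drawn down to the average SO− depth, the median number of genes tested over the draws was 35.5. The median number separated upwards was 17 and the median number called higher was 11. Of the 11 genes called in the full libraries 9 were still called. Bst2 was no longer called, Usp18 did not enter the fit, and Gbp2 was gained.

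**Figure D2:**
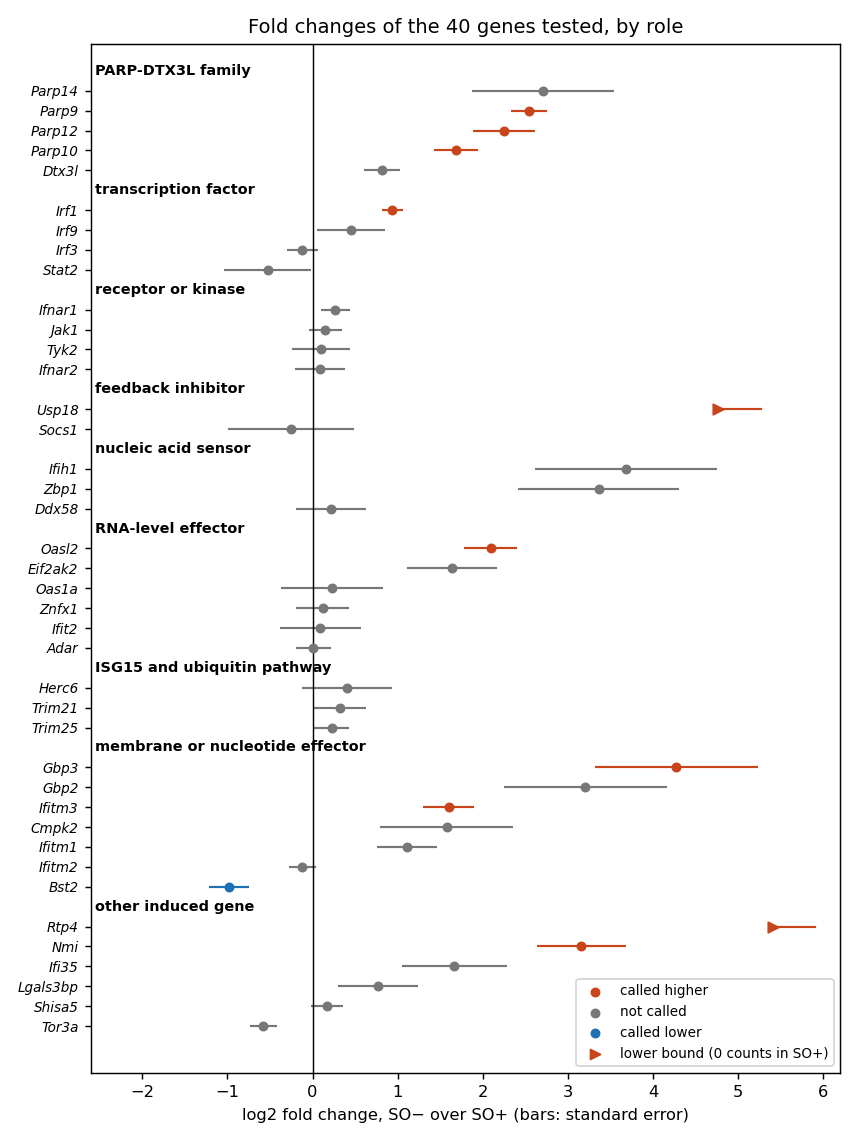
Log2 fold change of SO− over SO+ (horizontal axis) for the 40 genes tested, grouped by role, with bars of 1 standard error; red points were called higher, the blue point lower and grey points were not called. Triangles with a line running to the right mark Usp18 and Rtp4, which had no counts in SO+. They take SO+ at a floor of 3 counts, labelled as lower bounds, and leave out error in the SO− mean. The line is not an error bar. The 4 receptor and kinase genes lie between 0.09 and 0.27.

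The promoters of the genes were compared for the letters of these response elements. RefSeq promoter windows (GRCm38.p6, from 250 bases before the transcription start to 50 after it) were found for 42 of the 51 genes, and not for Rtp4, Parp14, Usp18, Parp9, Tor3a, Dhx58, Zbp1, Parp10 and Ifi27. A gene was counted if any of its windows held the motif, and some genes had several windows, up to 5 for Shisa5. The interferon-stimulated response element was searched as GAAANNGAAA on both strands. Of the 42 genes with a window, 17 held it (40.5%), against 3.99% of all 27025 genes with a window. The gamma-activated site, searched as TTCNNNGAA, which reads alike on both strands, was in 11 of the 42 genes (26.2%), against 9.55% of all genes. The motifs overlapped each other in Ifitm3, Bst2 and Shisa5. A match is a description of the letters and not evidence of a bound site.

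Sequences are given for genes separated between the genotypes whose window held the response element, printed 5′ to 3′ on the strand of the gene with the letters that match the response element in capitals. They cover Gbp3 (chr3:142559979-142560034, plus strand), Ifih1 (chr2:62646206-62646235, minus), Gbp2 (chr3:142620584-142620633, plus), Eif2ak2 (chr17:78882535-78882564, minus), Ifitm3 (chr7:141010714-141010743, minus) and Bst2 (chr8:71537567-71537622, minus). Gbp3, Ifitm3 and Bst2 each held 2 matches. The element of Ifih1, Eif2ak2 and Ifitm3 lay after the transcription start, and that of Gbp3, Gbp2 and Bst2 before it.
Gbp3: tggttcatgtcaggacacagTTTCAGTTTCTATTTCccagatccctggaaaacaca
Ifih1: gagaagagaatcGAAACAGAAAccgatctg
Gbp2: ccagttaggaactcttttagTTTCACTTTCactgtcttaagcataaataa
Eif2ak2: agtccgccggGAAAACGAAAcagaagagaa
Ifitm3: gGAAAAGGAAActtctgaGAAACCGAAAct
Bst2: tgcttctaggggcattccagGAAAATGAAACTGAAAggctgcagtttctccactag

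A second set was chosen after its values were seen, because it pairs Irf1, whose window held the gamma-activated site and no response element, with 4 textbook interferon-stimulated genes that had too few counts to test. The regions are Irf1 (chr11:53769904-53769952, plus), Isg15 (chr4:156200855-156200916, minus), Ifit3 (chr19:34583353-34583436, plus), Ifit1 (chr19:34640765-34640833, plus) and Rsad2 (chr12:26456543-26456592, minus). Capitals mark the gamma-activated site in Irf1 and the response element in the others. Isg15 held 3 overlapping matches, Ifit3 and Ifit1 held 2 each.
Irf1: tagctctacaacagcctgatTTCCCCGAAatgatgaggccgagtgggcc
Isg15: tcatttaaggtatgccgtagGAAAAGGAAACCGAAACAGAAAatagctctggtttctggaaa
Ifit3: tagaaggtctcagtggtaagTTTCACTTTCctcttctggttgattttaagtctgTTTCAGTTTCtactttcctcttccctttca
Ifit1: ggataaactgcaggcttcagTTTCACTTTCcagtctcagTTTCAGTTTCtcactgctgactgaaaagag
Rsad2: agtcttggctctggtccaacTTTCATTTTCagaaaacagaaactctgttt

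Matches were found in windows of called and uncalled genes. Among genes with a window, the response element was in 2 of the 6 called higher and in 11 of 27 tested and not called higher. It was in 4 of 9 genes with too few counts. The gamma-activated site was in 2 of the 6 genes called higher (Irf1 and Ifitm3), in 9 of 27 tested and not called higher, and in 0 of 9 with too few counts.

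**Figure D3:**
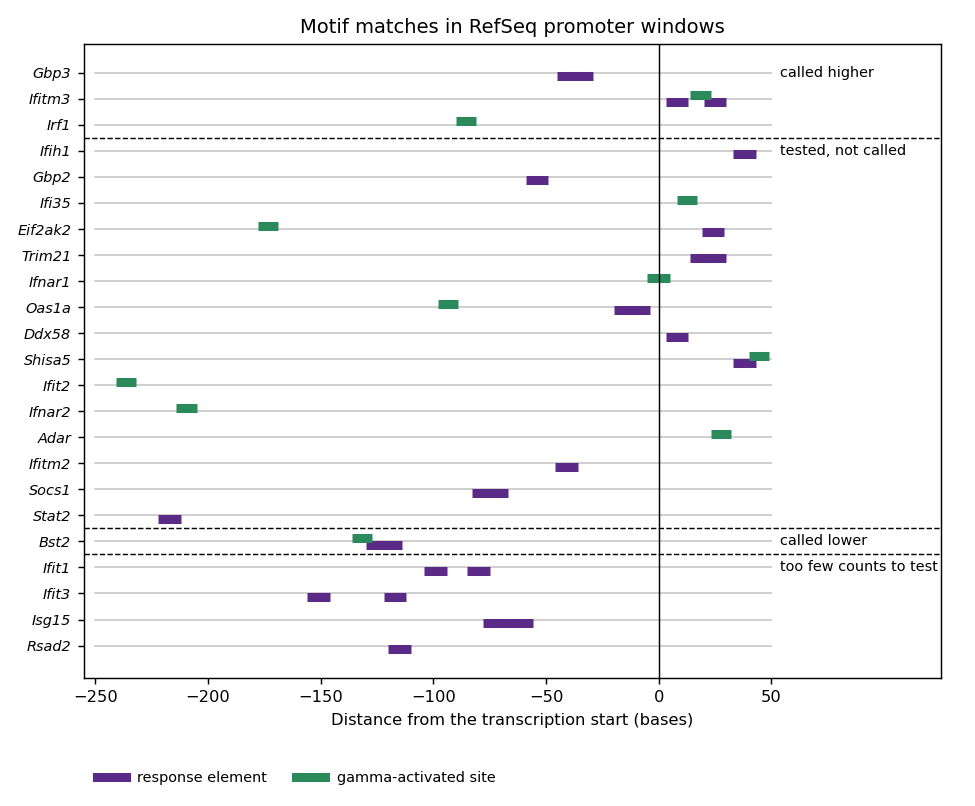
Matches to the interferon-stimulated response element (purple) and the gamma-activated site (green) in the RefSeq promoter windows that hold either, by distance from the transcription start in bases (horizontal axis). Rows are grouped by call. The element appears in windows of every group, and 4 of the 9 genes with a window that were too low to test hold it.

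Interferons themselves were almost without counts. Of 21 interferon ligand genes, 19 had no counts in any embryo, among them Ifnb1 and Ifng, and Ifna13 and Ifnk had 1 count each, both in SO− embryo 3. A count of 0 allows up to 0.111 CPM in the SO+ libraries and up to 2.68 CPM in the shallowest SO− library, so low ligand levels were not detectable at this depth.

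The 4 receptor chains and kinases were expressed in every embryo, and edgeR called 0 of them, with 0 at an unadjusted p under 0.05 and 0 by DESeq2 or limma-voom. Over all genes tested edgeR called 1.42% higher and 0.928% lower, so 0 of 4 is near that share. Ifnar1, a chain of the type I interferon receptor, stood at 42.6 and 56.7 CPM in SO+ and at 59.0, 64.4 and 56.8 CPM in SO− embryos 1, 2 and 3. Its SO− values lay above both SO+ values, with the lowest SO− and the highest SO+ embryo nearly level, and its log2 fold change was 0.27 ± 0.17 (SE). Ifnar2, the partner chain, stood at 12.2 and 11.5 CPM against 12.6, 10.7 and 13.6 CPM, a log2 fold change of 0.09 ± 0.29 with overlapping genotypes. The kinase gene Jak1 stood at 34.8 and 33.8 CPM against 44.0, 39.4 and 31.0 CPM (0.15 ± 0.20). Tyk2, the kinase bound to IFNAR1, stood at 15.1 and 15.6 CPM against 17.9, 6.26 and 21.0 CPM (0.10 ± 0.34). Jak1 and Tyk2 overlapped between the genotypes, with SO− embryo 2 holding the lowest Tyk2 value. The 95% intervals of the log2 fold change ran from -0.10 to 0.64 for Ifnar1 and from -0.27 to 0.58 for Jak1. Those for Ifnar2 and Tyk2 were wider, from -0.55 to 0.72 and from -0.64 to 0.83.

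Among the transcription factors, Irf1 was the only one called. Irf1 (chr11:53770014-53778374, plus strand), which activates promoters after interferon gamma and other stimuli and whose promoter sequence is printed above, stood at 69.6 and 70.0 CPM in SO+ and at 136.7, 124.4 and 136.7 CPM in SO− embryos 1, 2 and 3. Both SO+ embryos were nearly level and every SO− embryo was well above them, with a log2 fold change of 0.94 ± 0.13. Stat2, the interferon-specific STAT, stood at 6.28 and 3.88 CPM against 2.66, 2.68 and 4.77 CPM (-0.52 ± 0.51), and Irf9, its DNA-binding partner, at 5.70 and 5.32 CPM against 6.29, 8.95 and 7.87 CPM (0.45 ± 0.40). The Stat2 values overlapped, the Irf9 values did not, and neither was called. Irf3, which is activated by cytoplasmic nucleic acid sensors and induces the type I ligands, stood at 49.6 and 39.0 CPM against 42.1, 35.8 and 42.0 CPM (-0.12 ± 0.18), with overlap. Irf7, the factor that amplifies ligand production, had 2 and 21 counts in SO+ and 2, 0 and 0 counts in SO−, too few to test.

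The feedback inhibitors differed from each other. Usp18 (chr6:121245906-121270917, plus strand) encodes a protease that removes ISG15 from proteins and blocks the receptor chain IFNAR2. It had 0 counts in both SO+ embryos and 21, 3 and 5 counts in SO− embryos 1, 2 and 3, that is 5.08, 2.68 and 1.19 CPM. It was present only in the shallower SO− libraries and was called higher in the full libraries. When SO+ counts were drawn down it did not enter the fit and so was not tested. The mean SO− level was 27.2 times that of 3 counts per SO+ library, with no allowance for error in the SO− mean. Socs1, which inhibits the JAK kinases, stood at 3.09 and 1.59 CPM against 1.69, 0 and 3.10 CPM, a log2 fold change of -0.25 ± 0.74, and the genotypes overlapped fully.

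The PARP-DTX3L family, enzymes that transfer ADP-ribose or ubiquitin and are induced by interferons, had the largest ratio of summed levels of the 9 roles. All 5 genes were separated upwards and 3 were called higher, against 13.9% and 1.42% of all genes tested, but they were chosen on this contrast. Their summed level was 38.5 and 45.4 CPM in SO+ against 135.4, 145.0 and 134.6 CPM in SO−, a ratio of 3.30. Parp9, a partner of DTX3L in a ubiquitin ligase complex, stood at 7.88 and 7.95 CPM in SO+ and at 42.8, 45.6 and 49.4 CPM in SO− embryos 1, 2 and 3. The spread within each genotype was small beside the gap between them, with a log2 fold change of 2.54 ± 0.21. Dtx3l stood at 17.5 and 20.9 CPM against 29.3, 34.0 and 37.7 CPM, a log2 fold change of 0.81 ± 0.22 that was not called. Parp14, a mono-ADP-ribosyltransferase gene, stood at 0.218 and 0.666 CPM against 1.93, 2.68 and 4.06 CPM (2.71 ± 0.84) and was not called either.

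These 3 genes lie side by side on chromosome 16, with Parp14 at chr16:35832874-35871544 on the minus strand, Dtx3l at chr16:35926511-35939151 on the minus strand and Parp9 at chr16:35938470-35972605 on the plus strand. Parp9 and Dtx3l overlap by 682 bases on opposite strands, and since use of strand in the counting is not given in the sources used here, reads from the overlap cannot be assigned. Parp12, which binds RNA and restrains translation, stood at 5.56 and 5.88 CPM in SO+ and at 32.2, 37.6 and 14.8 CPM in SO−. SO− embryo 3 was lower than SO− embryos 1 and 2 and still above both SO+ embryos, with a log2 fold change of 2.25 ± 0.36. Parp10, a mono-ADP-ribosyltransferase gene that overlaps Plec on the same strand, stood at 7.30 and 10.1 CPM against 29.3, 25.1 and 28.6 CPM, a log2 fold change of 1.69 ± 0.26.

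**Figure D4:**
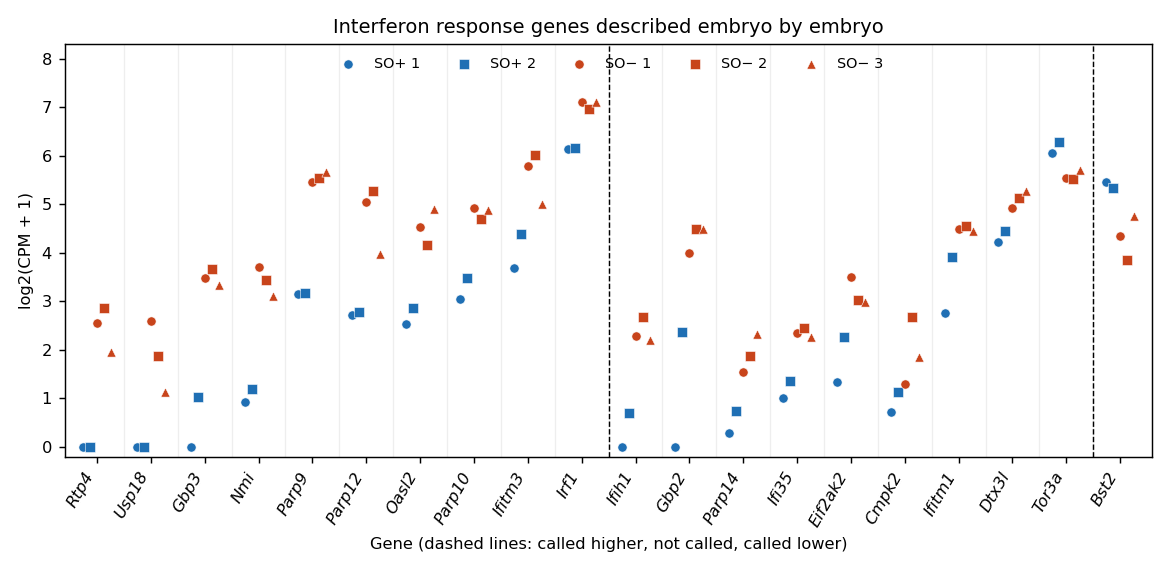
Level of 20 genes in each embryo as log2(CPM + 1) (vertical axis), blue for SO+ and red for SO−, with a marker shape for each embryo. Left of the first dashed line are the 10 genes called higher, between the lines 9 genes separated between the genotypes without a call, and at the right Bst2, called lower. Rtp4 and Usp18 sit at 0 in both SO+ embryos.

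The nucleic acid sensors were low in the SO+ embryos. Ifih1, which encodes the long double-stranded RNA sensor MDA5 and whose promoter sequence is printed above, stood at 0 and 0.629 CPM in SO+ and at 3.87, 5.37 and 3.58 CPM in SO− embryos 1, 2 and 3. Every SO− value lay well above the higher SO+ value, with a log2 fold change of 3.68 ± 1.07 that edgeR did not call and DESeq2 did. Zbp1, a sensor of left-handed nucleic acid, stood at 0.218 and 0.407 CPM against 5.08, 0 and 3.34 CPM (3.36 ± 0.94), and was picked out after its values were seen. It had no counts in SO− embryo 2, the shallowest library, and so overlapped. Ddx58, which encodes the RNA sensor RIG-I, stood at 5.37 and 6.25 CPM against 5.56, 6.26 and 8.11 CPM (0.21 ± 0.41), with no gap between the genotypes. Dhx58, a regulator of both sensors, had 79 and 39 counts in SO+ and 0, 1 and 2 counts in SO−, or 2.87 and 1.44 CPM against 0, 0.895 and 0.477 CPM, and was too low to be tested.

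Among effectors that act on RNA, Oasl2 was called. Oasl2, a 2′-5′-oligoadenylate synthetase-like gene, stood at 4.79 and 6.25 CPM in SO+ and at 22.3, 17.0 and 29.1 CPM in SO−, without overlap and with a log2 fold change of 2.09 ± 0.32. Eif2ak2, which encodes the RNA-activated kinase PKR that halts translation, stood at 1.53 and 3.81 CPM against 10.4, 7.16 and 6.92 CPM (1.64 ± 0.53), separated and not called. The other 4 tested genes of this group, Adar, Ifit2, Znfx1 and Oas1a, had log2 fold changes from 0.01 to 0.23, and all overlapped. Ifit3 had no counts in any embryo, Oasl1 had 3 counts in all, and Ifit1 had 0 and 30 counts in SO+ and 3, 0 and 0 counts in SO−. The Ifit, Oas and Ifitm genes have related copies, so reads shared between copies may have been left out or counted for another copy.

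The membrane and nucleotide effectors moved in both directions. Ifitm3, which blocks virus entry at membranes, stood at 11.9 and 19.9 CPM in SO+ and at 54.2, 63.5 and 31.0 CPM in SO−, with SO− embryo 3 nearest to the SO+ embryos and a log2 fold change of 1.60 ± 0.30. Its neighbour Ifitm1 stood at 5.81 and 14.1 CPM against 21.5, 22.4 and 20.8 CPM (1.11 ± 0.36) and was not called, with the 2 SO+ embryos further apart than the 3 SO− embryos. Ifitm2, on the same stretch of chromosome 7 and also with a response element in its window, stood at 108.9 and 76.8 CPM against 91.4, 77.8 and 84.0 CPM (-0.12 ± 0.16), with the genotypes fully overlapping. The family therefore held a gene called higher, a separated gene without a call and an overlapping gene.

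Gbp3 (chr3:142560026-142573209, plus strand), a guanylate-binding protein of the kind that coats intracellular pathogens, stood at 0 and 1.04 CPM in SO+ and at 10.2, 11.6 and 9.07 CPM in SO−, a log2 fold change of 4.27 ± 0.96. Its neighbour Gbp2 stood at 0 and 4.14 CPM against 15.0, 21.5 and 21.5 CPM (3.20 ± 0.96) and was not called. In both genes SO+ embryo 1 had no counts and SO+ embryo 2 did. The same pair of embryos differed in markers of blood and endothelium, whose summed level was 0.036 and 5.73 CPM in SO+ and 19.1, 20.6 and 11.2 CPM in SO−. Kdr made up most of that sum, 5 of the 9 markers (among them Hbb-bs and Cdh5) had no counts in any embryo, and the part of these cells in the Gbp result was not tested.

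Cmpk2, a mitochondrial nucleotide kinase gene, stood at 0.654 and 1.18 CPM in SO+ and at 1.45, 5.37 and 2.62 CPM in SO− (1.57 ± 0.78), a narrow separation. Bst2 (chr8:71534255-71537456, minus strand), which encodes tetherin, a protein that holds budding virus at the cell surface, went the other way. It stood at 43.0 and 39.3 CPM in SO+ and at 19.3, 13.4 and 26.2 CPM in SO−, with a log2 fold change of -0.98 ± 0.24 and a call of lower that was lost with another scaling (relative log expression factors) and when SO+ counts were drawn down. Its window held 2 response elements, as printed above. Rsad2, which encodes viperin, had 6 and 3 counts in SO+ and 0 in SO−, and Samd9l had 18 and 27 counts against 5, 1 and 11 counts. Both were too low to test.

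The ISG15 conjugation and ubiquitin group, which tags proteins with the ubiquitin-like ISG15 or with ubiquitin, had 0 genes called by edgeR, DESeq2 or limma-voom, and 0 at an unadjusted edgeR p under 0.05. With 3 genes tested, 0 called is near the share over all genes (1.42% higher and 0.928% lower by edgeR). Trim25, Trim21 and Herc6 had log2 fold changes of 0.23 to 0.41, and all overlapped. Isg15 itself, often taken as a reporter of the response, had 10 and 5 counts in SO+ and 6, 0 and 18 counts in SO−, or 0.363 and 0.185 CPM against 1.45, 0 and 4.29 CPM, too few to test. SO− embryo 3 held the highest value and SO− embryo 2 had none. Uba7, the ISG15-activating enzyme gene, had no counts in SO+ and 7, 2 and 0 counts in SO−.

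Of the remaining induced genes, Nmi and Rtp4 were called. Nmi, which binds STAT proteins and IFI35, stood at 0.908 and 1.29 CPM in SO+ and at 12.1, 9.84 and 7.63 CPM in SO−, with a log2 fold change of 3.16 ± 0.53 and no overlap. Its binding partner gene Ifi35 stood at 1.02 and 1.55 CPM against 4.11, 4.47 and 3.82 CPM (1.67 ± 0.62), separated and not called. Rtp4, a chaperone of receptor transport, had 0 counts in both SO+ embryos. It had 20, 7 and 12 counts in SO− embryos 1, 2 and 3, or 4.84, 6.26 and 2.86 CPM. The mean SO− level was 42.3 times that of 3 counts per SO+ library, with no allowance for error in the SO− mean. Rtp4 overlaps Masp1 on the opposite strand, which had 1 and 6 counts in SO+ and 1, 2 and 8 counts in SO−. It also overlaps Gm45338 on the same strand, which had 12 and 7 counts in SO+ and 0, 0 and 3 counts in SO−. Some reads could therefore belong to Rtp4 or to either of these genes, and the ratio given for Rtp4 does not allow for that.

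Tor3a, an endoplasmic reticulum ATPase gene, stood at 65.6 and 77.2 CPM in SO+ and at 45.7, 44.7 and 51.3 CPM in SO−, a log2 fold change of -0.58 ± 0.16. All SO− embryos lay below both SO+ embryos, and it was not called. Lgals3bp and Shisa5 had log2 fold changes of 0.77 and 0.17 with overlap. Ifi27 had 14 and 8 counts against 11, 1 and 3 counts, and Xaf1 had 2 counts in all, both too low to test.

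Levels between genes were compared per exon length, as TPM, which divides counts by exon length and scales each library to the same total. Ifitm2 had the highest mean level in both genotypes, 422.2 TPM in SO+ and 384.6 TPM in SO−, and made up 42.4% of the summed TPM of the 51 genes in SO+. Bst2 followed in SO+ with a mean of 135.8 TPM, against 64.9 TPM in SO−. Ifitm3 had a mean of 70.1 TPM in SO+ and 218.8 TPM in SO−, and Irf1 52.3 and 99.5 TPM. Of the genes called higher, 8 of 10 had a mean under 10 TPM in SO+. Among all 51 genes, 17 had a mean under 1 TPM in SO+ and 10 in SO−. The ratio of the summed levels, SO− over SO+, was 1.26 per length.

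The 51 genes lay on 17 chromosomes and the 10 called higher on 8 of them, with 2 each on chromosomes 6 and 16. Eif2ak2 was the only gene of the 51 on chromosome 17, where Pou5f1 lies, and was 43.3 Mb away from it.

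Related lists, written with earlier results of these data known, are given for context by their counts. Over all genes tested, edgeR called 1.42% higher and 0.928% lower. Of 63 further interferon-stimulated genes, 23 were tested and 16 had no counts in any embryo, and the median log2 fold change was 0.30. By edgeR 3 were called higher and 0 lower, with 7 higher and 2 lower at an unadjusted p under 0.05. DESeq2 called 4 higher and 0 lower, and limma-voom 3 higher and 0 lower. DESeq2 called 2.06% of all genes higher. The 3 called by edgeR were Irgm1, Igtp and Mov10. Irgm1, an immunity-related GTPase gene, stood at 3.52 and 9.61 CPM against 62.9, 70.7 and 44.4 CPM. Igtp, another such GTPase gene, had a log2 fold change of 1.36 ± 0.29, and the RNA helicase gene Mov10 one of 1.14 ± 0.16. Of 12 genes of class I antigen presentation and the immunoproteasome, all were tested, the median was 1.07, and 7 were called higher. Psmb8, an immunoproteasome subunit gene, stood at 3.23 and 11.2 CPM in SO+ and at 74.5, 106.5 and 76.8 CPM in SO−. The others called were Psmb10, Psme1, Psme2, Tap2, Tapbp and Erap1, with log2 fold changes of 0.85 to 1.81. Among 9 other receptor and kinase genes, 10 sensor adaptor genes and 8 NF-kB target genes that were tested, 0 were called by edgeR, DESeq2 or limma-voom, with medians of 0.12, 0.19 and 0.13. For lists of this size, 0 called by edgeR is near the share over all genes. At an unadjusted edgeR p under 0.05 these lists had 0, 2 and 2 genes, and in each pair 1 was higher and 1 lower.

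**Figure D5:**
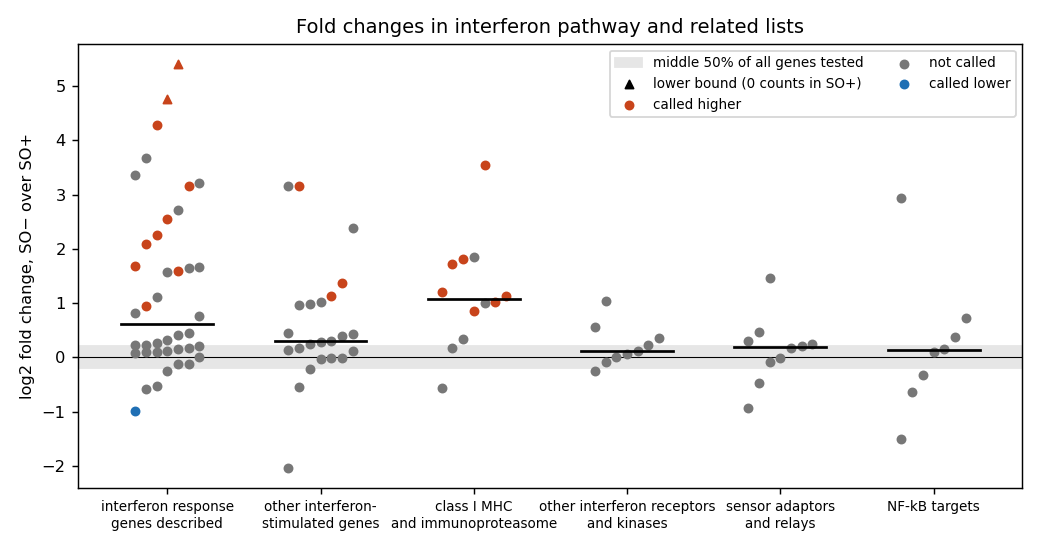
Log2 fold change of SO− over SO+ (vertical axis) of each tested gene in 6 lists, with black lines at the medians and the middle 50% of all tested genes shaded. Red points were called higher and the blue point, Bst2, lower. Triangles, labelled as lower bounds, are Usp18 and Rtp4 with SO+ at a floor of 3 counts and no error in the SO− mean. The medians are 0.61 for the genes described here, 0.30 for other interferon-stimulated genes, 1.07 for class I and immunoproteasome genes, and 0.12 to 0.19 for the other lists.

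Markers of other cells were compared in the same embryos. Of 16 immune cell markers, 7 had no counts in any embryo, among them the defining genes Ptprc, Tyrobp, Lyz2, C1qa, C1qb and Aif1. The summed level of the 16 was 33.3 and 17.9 CPM in SO+ and 8.95, 7.16 and 14.3 CPM in SO−, mostly from Coro1a. Coro1a, the only one of them tested, was called lower (log2 fold change -1.53), and Laptm5 was separated in the other direction, at 0.218 and 0.370 CPM in SO+ and 0.484, 1.79 and 1.91 CPM in SO−. The VE markers summed to 2617 and 2833 CPM in SO+ and to 3900, 3884 and 2426 CPM in SO−, with overlap. The extraembryonic ectoderm markers summed to 23.3 and 30.3 CPM against 39.4, 53.7 and 33.6 CPM, higher in SO− without overlap. Of the 6 of these tested, 4 had a log2 fold change above 0 and 2 below. None was called by edgeR, and DESeq2 called 1 higher. Plet1 was separated upwards, at 2.22 and 4.18 CPM in SO+ and 8.22, 20.6 and 11.2 CPM in SO−. SO− embryo 3 had the lowest VE sum of the 5 embryos. Of the 10 genes called higher, it had the lowest SO− value in 6, among them Parp12 and Ifitm3. It had the highest SO− value in 3, Parp9, Irf1 and Oasl2. The 8 maternal decidua markers summed to 15.5 and 16.7 CPM in SO+ and 22.3, 19.7 and 18.4 CPM in SO−. Of the 8 epiblast markers, whose sum was lower in every SO− embryo as given above, 5 had a log2 fold change below 0. The other 3, Sox2, Fgf5 and Epcam, were above 0. Dnmt3b (log2 fold change -0.99) and Utf1 (-2.08) were called lower beside Pou5f1. Sox2 was separated upwards and not called, at 7.48 and 7.88 CPM in SO+ and 10.6, 9.84 and 12.9 CPM in SO−. Dnmt3b was the largest part of the sum, at 3983 and 3263 CPM in SO+ and 1708, 1447 and 2286 CPM in SO−. The part of epiblast, VE, extraembryonic ectoderm, decidua and immune cells in the result was not tested.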

How the data were processed

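The authors aligned reads with STAR to GRCm38 (mm10) and counted them per gene with HTSeq, as named in the submitters' processing notes, and deposited 1 table of whole-number counts for the 5 embryos. Embryos were grouped by their GEO titles. The members and lists were chosen with earlier results of these data known. CPM used the total count of each library, and TPM used union exon lengths of GENCODE M21 on GRCm38. Counts were fitted in R 4.3.3 with the quasi-likelihood test of edgeR 4.0.16, after filterByExpr and TMM scaling, with genotype alone in the model and all 5 embryos, with Benjamini-Hochberg adjustment over 12067 genes and a threshold of 0.05. limma 3.58.1 (voom) and DESeq2 1.42.0 were alternatives. Depth was 1117566 to 27538119 counts, and floors of 3 counts cover counting error only. Values were given by embryo for members past the threshold, for members whose CPM did not overlap and whose log2 fold change was 0.5 or more from 0, and for receptors, kinases, transcription factors and feedback inhibitors. For other lists, genes past the threshold were named, and a further gene that the rule names without regard to its call is not reported here. Up to 6 promoters were printed by rule. Replicates are separate embryos, and their counts differed by more than sampling noise (chi-square per degree of freedom 2.41 to 24.8). Promoter sequences are from RefSeq (GRCm38.p6).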

Additional observations from a re-analysis of the deposited data

How the results depend on the processing

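Of 626 recomputed gene values, 0 reversed a call, 59 lost a call, 12 gained a call and 10 moved without a call by more than their standard error. In genes not called (Irf3, Ifnar2, Jak1, Tyk2 and Socs1), 8 values changed sign. Settings in which a gene did not enter the fit, as Usp18 without SO− embryo 1, are not among these values, so the 59 leaves out calls lost in that way. The number called lower was 0 with limma-voom and with RLE scaling, 2 with the replicate block and 0.5 (median of draws) with thinned SO+ libraries, against 1. All genes called were 91 with limma-voom, against 283. The median log2 fold change, 0.61, was 0.47 with limma-voom, 0.40 with no filter, 0.31 with at least 10 counts in every embryo, where fewer genes are tested, and 0.45 with thinned SO+ libraries. With at least 10 counts in every embryo, 18 genes were above 0 and 11 were separated upwards, and with no filter 4 were separated downwards (these counts of separation were added after seeing the data). The summed ratio, 1.39, was 1.33 without Irf1 and 1.26 as TPM. Leaving out each embryo in turn gave 2 to 14 called higher, 0 to 1 called lower, 35 to 573 of all genes called, medians of 0.41 to 0.83 and 2 to 7 separated downwards. All genes called were 46 without SO− embryo 1, 35 without SO− embryo 2, 180 without SO+ embryo 1 and 573 without SO+ embryo 2. With 1 SO+ embryo left, it was assumed to vary like the others. The cause of these changes was not tested. With the replicate block, 14 were called higher and 929 of all genes were called, but equal numbers mark different animals and their deviations correlated at -0.009 and 0.12 across genes. Depth limits statements on genes with few SO− counts.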
